A study of Mus musculus with 6 samples.

Results

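The TALE homeodomain genes Pbx2, Pbx3, Meis1, Meis2, Meis3, Pknox1, Pknox2, Tgif1 and Tgif2 were followed in cells of the embryonic mouse hindbrain in which the Hoxb1 locus was active. They were taken by symbol: a probe set counted as a member when the platform's probe table gave it exactly 1 symbol and that symbol was one of these 9. This gave 21 probe sets of 45037 and 9 genes of 18193, and for each gene the probe set of highest mean over the arrays stands for it, a choice that does not use genotype. Total RNA came from tauGFP-positive cells sorted from dissected hindbrains of entire litters at E10.5, and it was amplified and hybridized to 6 Affymetrix Mouse Genome 430 2.0 arrays. The control group (n = 3 arrays) carried Hoxb1-IRES-tauGFP, in which the locus makes its normal protein, Hox-B1. The swap group (n = 3 arrays) is different in that the same locus, with the same IRES-tauGFP reporter, made another Hox protein. The name of that protein is not reported here. Both groups therefore share the tagged locus, and the sort takes only cells in which that locus drives the reporter. The series design calls the replicates biological and independent, and each pooled whole litters. Strain, embryo sex and the number of modified alleles per embryo are not given here.

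Hox proteins recognise DNA weakly on their own, and TALE proteins are the partners with which many of them bind. Pbx proteins contact Hox proteins directly, while Meis proteins and the Prep proteins, which are encoded by Pknox1 and Pknox2, bind Pbx, keep it in the nucleus and add a DNA contact of their own. Tgif proteins belong to the same homeodomain class but act mainly as repressors, among others of signalling through Smad proteins. In rhombomere 4, the hindbrain segment named in the labels, Hoxb1 is known to sustain its own transcription through sites upstream of the gene that Hox and Pbx proteins bind together. Those sites are shown here because they are where the protein exchanged in this study and the TALE proteins are known to meet. The first line below is RefSeq's sequence (GRCm38.p6) of the 250 bases before the Hoxb1 start, chr11:96365508-96365757 on the + strand. The second is the window before 1 of 5 annotated Tgif1 starts, chr17:70849791-70850040 on the - strand, the 1 window of the TALE genes with a full Hox-Pbx match. Capitals mark TGATNNAT, a Hox-Pbx site, and TGATTG, the Pbx part of such a site.
Hoxb1: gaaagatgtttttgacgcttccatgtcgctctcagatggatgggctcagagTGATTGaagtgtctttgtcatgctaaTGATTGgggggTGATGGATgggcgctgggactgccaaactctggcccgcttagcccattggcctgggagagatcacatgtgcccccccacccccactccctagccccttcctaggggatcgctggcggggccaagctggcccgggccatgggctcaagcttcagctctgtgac
Tgif1: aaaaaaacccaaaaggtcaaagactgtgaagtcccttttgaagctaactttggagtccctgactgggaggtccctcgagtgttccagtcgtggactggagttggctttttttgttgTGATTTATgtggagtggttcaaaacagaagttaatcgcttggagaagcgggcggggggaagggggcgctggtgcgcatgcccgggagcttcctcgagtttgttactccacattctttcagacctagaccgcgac

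The Hoxb1 window held 1 TGATNNAT match, at bases 89 to 96, and 2 TGATTG matches, at bases 52 to 57 and 78 to 83. Both strands were searched, and none of these matches overlapped another. RefSeq's table had windows for 6 of the 9 TALE genes, Pbx2, Meis1, Meis2, Meis3, Tgif1 and Tgif2, with 10 windows in all. With the 50 bases after each start included, TGATNNAT was found in 1 of the 10, TGATTG in 1 and the Meis and Prep site TGACAG in 2, all of them windows of Tgif1. Of all 32851 windows of that length 8.85% held TGATNNAT, 14.0% TGATTG and 19.2% TGACAG. These matches describe letters in a window and are not measured binding.

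In the sorted cells all 9 TALE genes gave signal at or above the median level of the arrays, and none passed the test between the genotypes. A probe set's level is its log2 intensity, and the median level over all probe sets was 6.83 (an intensity of 114). Of the 21 member probe sets 20 lay at or above it, as did 22519 of all 45037. Of all 18193 genes, each by its probe set of highest mean, 11168 did. limma's test at an adjusted p under 0.05 called 0 of the 21 probe sets and 0 of the 9 genes, against 0% of all 45037 probe sets. At an unadjusted p under 0.05 it gave 1 of the 21 probe sets, against 4.57% of all probe sets, and 0 of the 9 genes, against 3.63% of all genes. The adjusted p was 1.00 for each of the 21. Each difference below is a swap mean minus a control mean in log2 units, with the standard error (SE) and 95% interval of the limma fit. Of the 9 genes 4 had a positive and 5 a negative difference, from -0.47 to 0.40, with a median of -0.02 against 0.01 over all genes. In 2 of the 9, Pbx3 and Meis1, every swap array lay above every control array, against 4.30% of all genes for that direction. No member lay wholly below, against 4.55% of all genes. Both directions together made up 8.85% of all genes. Of the 21 probe sets 3 had groups that did not overlap, against 8.83% of all probe sets. These are bulk samples, so fewer cells of a type and less RNA per cell cannot be told apart.

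**Figure D1:**
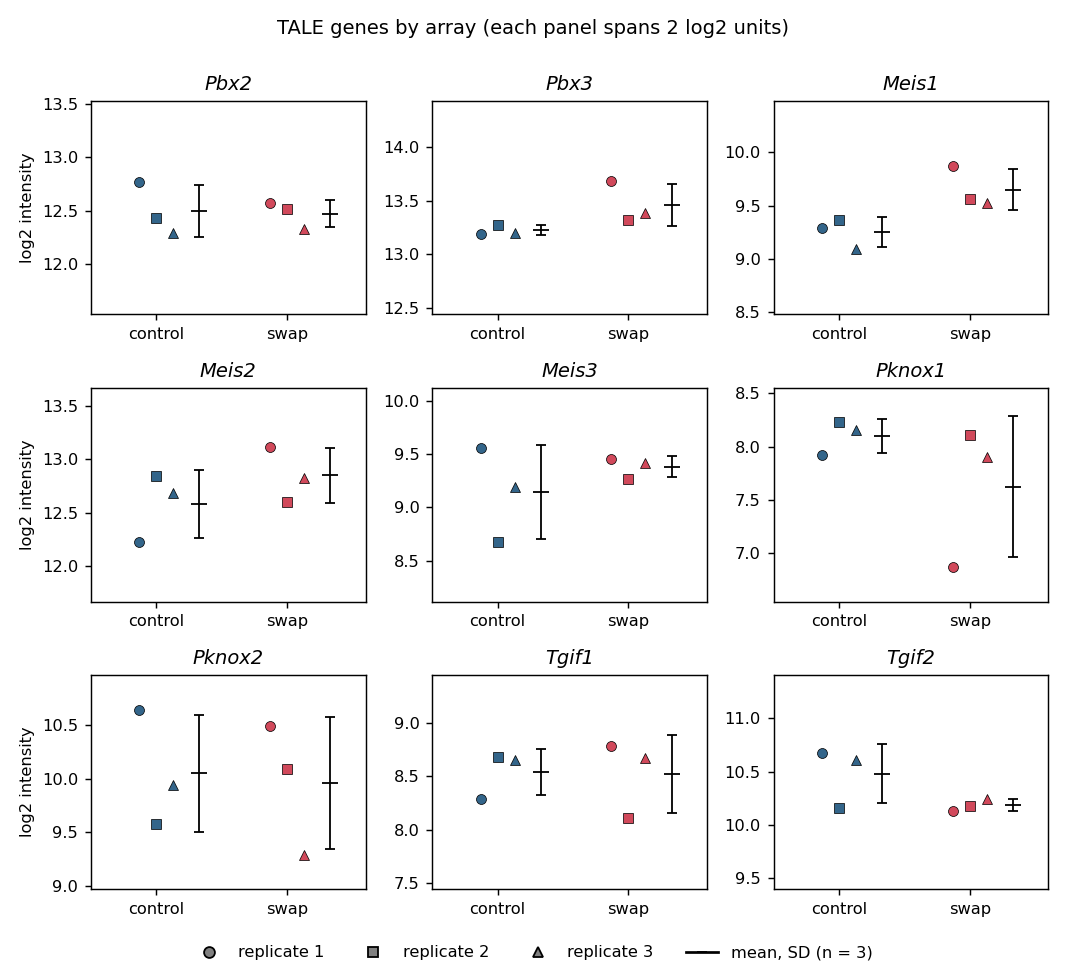
Log2 intensity (y axis) of the 9 TALE genes in each control and swap array, with the mean and SD of 3 arrays at the right of each group and a span of 2 log2 units in every panel. Swap and control arrays are separate for Pbx3 and Meis1 and overlap for the other 7 genes, and swap array 1 is at 6.87 for Pknox1, below the other 5 arrays.

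Of the Pbx genes, whose products bind directly to Hox proteins, Pbx2 gave nearly the same mean in both genotypes and Pbx3 a slightly higher one in the swap arrays. Pbx2 stood at 12.77, 12.44 and 12.29 in the 3 controls (arrays 1, 2 and 3) and 12.57, 12.52 and 12.33 in the 3 swap arrays, in the same order. The swap values all lie inside the range of the control values. The difference was -0.03 (SE 0.24, 95% interval -0.61 to 0.55), and the other 2 Pbx2 probe sets gave 0.00 and 0.01. The last of them was the steadiest member probe set, from 10.04 to 10.21 over the 6 arrays. Pbx3 stood at 13.19, 13.28 and 13.20 in the controls and 13.68, 13.32 and 13.38 under the swap. The gap between the groups is narrow, since swap array 2 is just above control array 2 and swap array 1 is well above the rest. Its difference was 0.24 (SE 0.22, 95% interval -0.30 to 0.77, two-sided exact permutation p = 0.1, the lowest possible for groups of 3). Without swap array 1 the difference was 0.13. The second Pbx3 probe set gave almost the same difference, 0.23 (SE 0.28). Its arrays overlapped, with 9.01, 9.49 and 9.07 in the controls and 9.08, 9.69 and 9.49 under the swap.

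The Meis genes, whose products bind Pbx and stabilise the complex on DNA, had positive differences at the probe sets that stand for them, and the other probe sets of Meis1 and Meis2 gave smaller or negative ones. Meis1 stood at 9.29, 9.37 and 9.09 in the controls and 9.87, 9.56 and 9.52 under the swap. All 3 swap arrays were higher than all 3 control arrays, and swap array 1 was the highest. The difference of 0.40 (SE 0.23, 95% interval -0.16 to 0.96) did not pass limma's test (unadjusted p = 0.131, two-sided exact permutation p = 0.1). With 1 array left out it ranged from 0.29 to 0.46. The 2 other Meis1 probe sets disagreed with each other. One gave 9.02, 9.29 and 9.30 in the controls and 10.01, 8.91 and 9.32 under the swap, a difference of 0.21 (SE 0.34) with swap array 1 far above the rest. The other gave 9.04, 9.15 and 9.42 in the controls and 9.38, 8.99 and 9.07 under the swap, a difference of -0.06 (SE 0.24). The mean over the 3 Meis1 probe sets had a difference of 0.18 and overlapping arrays.

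Meis2 was measured by 4 probe sets, all of them at high intensity. The one that stands for the gene gave 12.22, 12.84 and 12.68 in the controls and 13.11, 12.60 and 12.83 under the swap. The groups overlapped, with control array 1 the lowest and swap array 1 the highest. Its difference was 0.27 (SE 0.28, 95% interval -0.42 to 0.95), and without both replicate 1 arrays it was -0.05. The remaining 3 Meis2 probe sets gave differences of 0.07, -0.01 and -0.02, with SE from 0.25 to 0.28. In each of the 4 probe sets control array 1 was the lowest array. Meis3 had 1 probe set, at 9.56, 8.68 and 9.19 in the controls and 9.45, 9.27 and 9.42 under the swap. The swap arrays sat together inside a wide control range. The Meis3 difference was 0.24 (SE 0.29, 95% interval -0.48 to 0.96), and it ranged from 0.01 without control array 2 to 0.44 without control array 1.

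Pknox1, which encodes Prep1, had the largest differences of the 9 genes, and all 3 of its probe sets were lower in the swap arrays. The probe set that stands for it gave 7.92, 8.23 and 8.15 in the controls and 6.87, 8.11 and 7.90 under the swap. Swap array 1 was far below the other arrays, while swap arrays 2 and 3 lay inside or just below the control range. The difference was -0.47 (SE 0.38, 95% interval -1.42 to 0.47), and without swap array 1 it was -0.10. The second probe set gave 7.86, 8.11 and 8.07 in the controls and 7.53, 6.78 and 7.39 under the swap. Here all 3 swap arrays were lower, and the lowest was swap array 2. Its difference of -0.78 (SE 0.28, 95% interval -1.48 to -0.09) was the member difference with the smallest unadjusted p, 0.0336, and its adjusted p in limma was 1.00. The third probe set gave 7.65, 7.60 and 8.32 in the controls and 6.01, 7.89 and 7.86 under the swap, a difference of -0.60 (SE 0.59). Swap array 1 was again far below. So the lowest array was swap array 1 in the first and the third probe sets and swap array 2 in the second. Over the mean of the 3 probe sets the Pknox1 difference was -0.62 (unadjusted p = 0.0931 in limma).

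**Figure D2:**
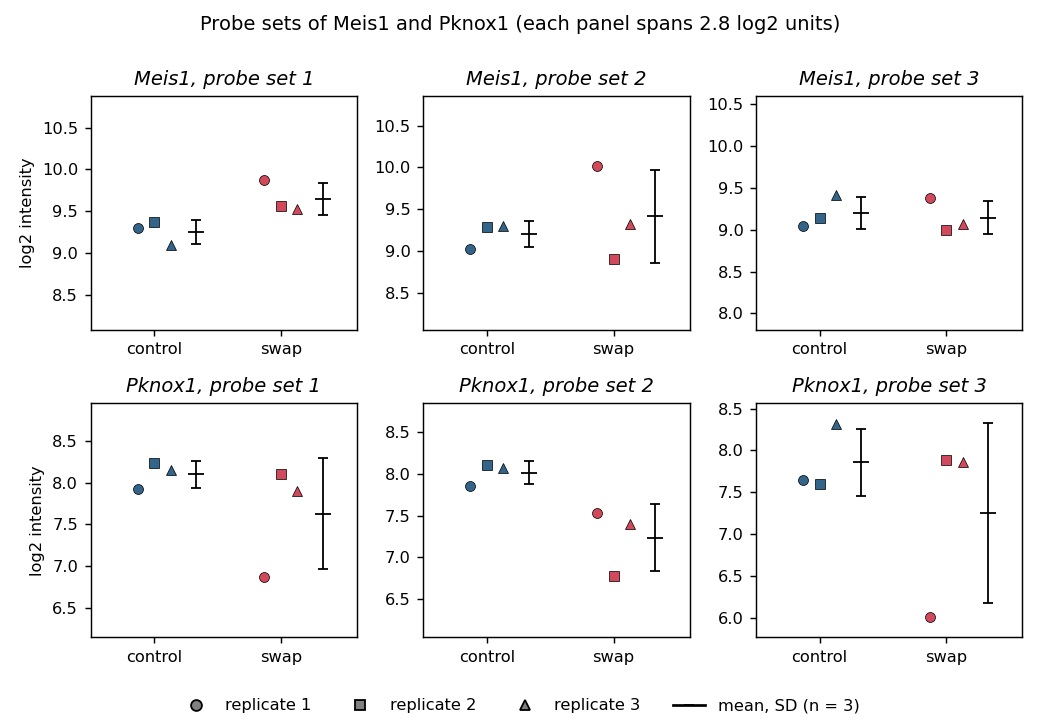
Log2 intensity (y axis) of the 3 probe sets of Meis1 (top) and the 3 of Pknox1 (bottom) in each array, ordered by falling mean level, with mean and SD of 3 arrays and the same span in every panel. Differences for Meis1 are 0.40, 0.21 and -0.06, and for Pknox1 they are -0.47, -0.78 and -0.60, with swap array 1 the lowest in the first and the third Pknox1 panels.

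Pknox2, which encodes Prep2, had the largest within-genotype SD of the 9 TALE genes when both genotypes were pooled. It stood at 10.65, 9.57 and 9.94 in the controls and 10.498, 10.10 and 9.29 under the swap. The highest value of each group was in replicate 1, and the groups overlapped over most of their range. Its pooled within-genotype SD was 0.581, and 2.47% of the 1740 genes within 0.5 log2 units of its level had a larger one. Among the swap arrays alone the SD of Pknox1 was larger, 0.66 against 0.61 for Pknox2. The Pknox2 difference was -0.09 (SE 0.44, 95% interval -1.18 to 1.00). It turned positive without control array 1 (0.21) and without swap array 3 (0.24). The second Pknox2 probe set was the 1 member probe set below the median level, with intensities from 4.41 to 21.8, and gave -0.27 (SE 0.67).

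The Tgif genes, repressors of the same homeodomain class, had negative differences, that of Tgif1 close to 0. Tgif1 stood at 8.29, 8.68 and 8.65 in the controls and 8.79, 8.11 and 8.68 under the swap. The lowest and the highest array were both swap arrays. Its difference was -0.02 (SE 0.28, 95% interval -0.72 to 0.68) and 0.01 when arrays were centred on their medians. Tgif2 stood at 10.67, 10.16 and 10.61 in the controls and 10.13, 10.18 and 10.25 under the swap. The swap arrays were close together (SD 0.06) near control array 2, and control arrays 1 and 3 were higher. The Tgif2 difference was -0.29 (SE 0.24, 95% interval -0.88 to 0.29), and it was -0.45 without control array 2. The second Tgif2 probe set gave -0.08 (SE 0.28) with overlapping arrays.

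**Figure D3:**
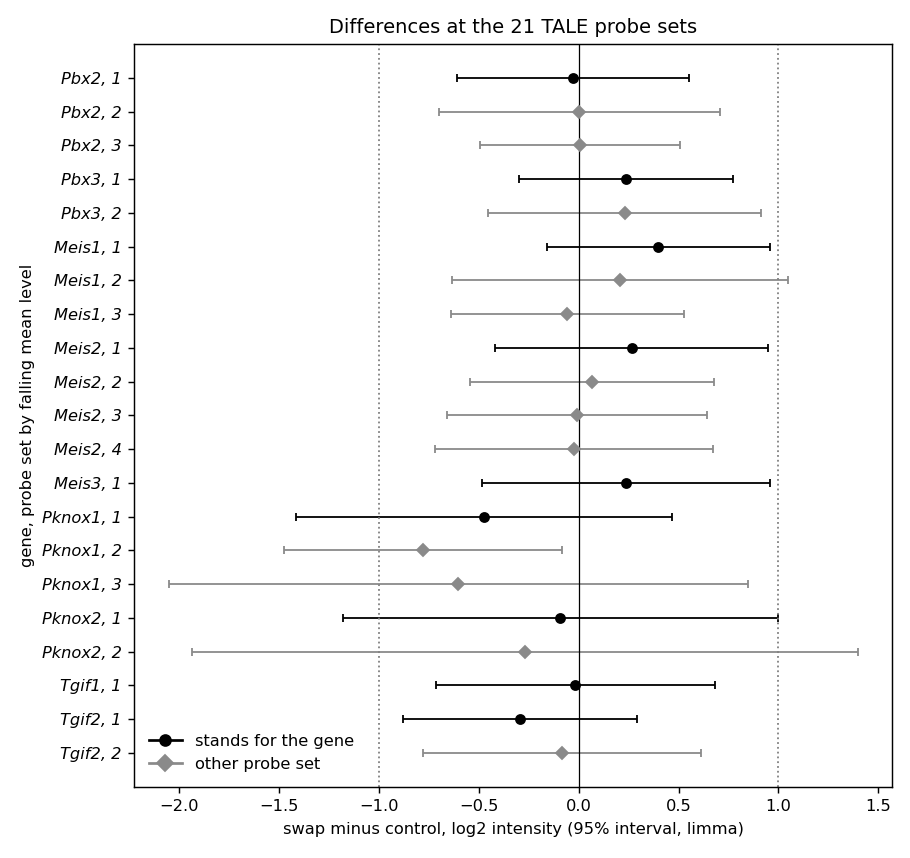
Swap minus control difference in log2 intensity (x axis) with its 95% interval from limma for the 21 member probe sets, where black circles stand for the gene, grey diamonds are its other probe sets and dotted lines mark 2-fold. The interval of the second Pknox1 probe set, -1.48 to -0.09, is the 1 that leaves out 0, and its adjusted p is 1.00.

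How far these arrays bound a change differed among the members. At the probe sets that stand for the genes, the 95% interval lay within 2-fold in either direction for 7 of the 9, all but Pknox1 and Pknox2. Among all 11168 genes at or above the median level the share was 68.1%. Of the 21 member probe sets 15 had such an interval. The second Meis1 probe set, with -0.63 to 1.05, did not. Among all probe sets the share was 32.6%, but weak signals are far commoner there than among the members. That comparison is therefore not matched for level, and no conclusion is drawn from it. The median SE was 0.277 over the 9 genes and 0.267 over those 11168 genes. In genes with several probe sets, Pbx3 had both differences positive, Pknox1 all 3 negative, and Pknox2 and Tgif2 both negative. Pbx2, Meis1 and Meis2 had differences of both signs.

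The separation of the groups for Pbx3 and Meis1 held under quantile normalization but not under median centring or when probe sets were averaged. With quantile normalization these 2 of the 9 genes were separate, against 9.01% of all genes. With each array centred on its median, 0 of the 9 genes had separate groups, against 8.01% of all genes. With the mean of all probe sets per gene, the count was again 2 of 9, but these were Pknox1 and Tgif2, both lower in the swap arrays, against 8.91% of all genes. Without control array 1 there were 4 of 9, with Meis3 (higher) and Pknox1 (lower) beside Pbx3 and Meis1. The share among all genes rose as well, to 20.4%, since fewer arrays separate more easily. Without both replicate 1 arrays the same 4 genes were separate, against 31.1% of all genes.

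Control array 1 and swap array 1 held the extreme values of many members. For 8 of the 9 genes the highest value was in a replicate 1 array, 4 in control array 1 and 4 in swap array 1. Among all genes at or above the median level this held for 40.7%. The lowest value lay in a replicate 1 array for 4 of the 9 genes, against 39.7%. Pbx3, Meis1, Meis2 and Tgif1 were highest in swap array 1, and Pbx2, Meis3, Pknox2 and Tgif2 were highest in control array 1. Without both of these arrays the differences of Pbx3, Meis1, Meis2 and Pknox1 were nearer 0, at 0.11, 0.31, -0.05 and -0.19. Those of Meis3 and Tgif1 were farther from 0, at 0.41 and -0.28, and Pbx2, Pknox2 and Tgif2 were at 0.06, -0.06 and -0.17.

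Markers of the cell types that the sort could hold were summed on each array, and some sums set the same arrays apart. The facial motor neuron list, led by Isl1 and Tbx20, had 5 of 6 genes measured, all 5 at or above the median level. Its summed intensity was 25270 to 26880 in the control arrays, 26380 and 25780 in swap arrays 2 and 3, and 33530 in swap array 1. That sum is carried by Isl1 and Tbx20, both highest in swap array 1, as Pbx3, Meis1 and Meis2 were. The other 3 measured markers were not: Phox2a, Tbx2 and Tbx3 stood at 9.10, 7.08 and 9.23 there, below their 9.74, 7.65 and 9.85 in control array 2. The neural progenitor list, led by Vim and Fabp7, had all 5 genes measured with sums of 35700 to 36870 among controls and 34820 to 36470 among swap arrays. Branchial mesenchyme, with Col1a1 and Prrx1 highest among 10 measured genes (9 at or above the median level), had sums of 3316 to 9755 among controls and 4307 to 7252 among swap arrays. Its lowest sums were in the 2 replicate 1 arrays, but not every gene of the list followed. Msx1 was highest in swap array 1 (9.50) and Prrx2 in control array 1 (7.22). Macrophage genes, led by C1qb and Csf1r (8 measured, 4 at or above the median level), summed to 443, 16160 and 1508 in control arrays 1, 2 and 3 and to 2163 to 4235 in the swap arrays. Control array 2, with that high macrophage sum, was the lowest of the 6 arrays for Meis3 and the highest of the 6 for Pknox1. Among the controls it was the lowest for Pknox2 and Tgif2 and the highest for Pbx3, Meis1, Meis2 and Tgif1. Erythroid genes, led by Hbb-y and Hbb-bh1 (5 of 6 measured), had their lowest sums in the replicate 1 arrays, 20520 (control) and 15360 (swap), against 27620 to 33110 in the other 4 arrays. All 5 measured erythroid genes had a negative difference (median -0.27) and overlapping groups. The 5 endothelial genes, led by Tek and Cdh5, were all below the median level. Their sums were 248 to 404 in the control arrays and 407 to 429 in the swap arrays. Every swap sum thus lay above every control sum, by a narrow gap. All 5 genes had a positive difference (median 0.59), but the groups overlapped in each of the 5, and limma called 0 of them. No measured gene of these lists was listed at 0 on any array, and the part of cell makeup in the TALE values was not tested.

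**Figure D4:**
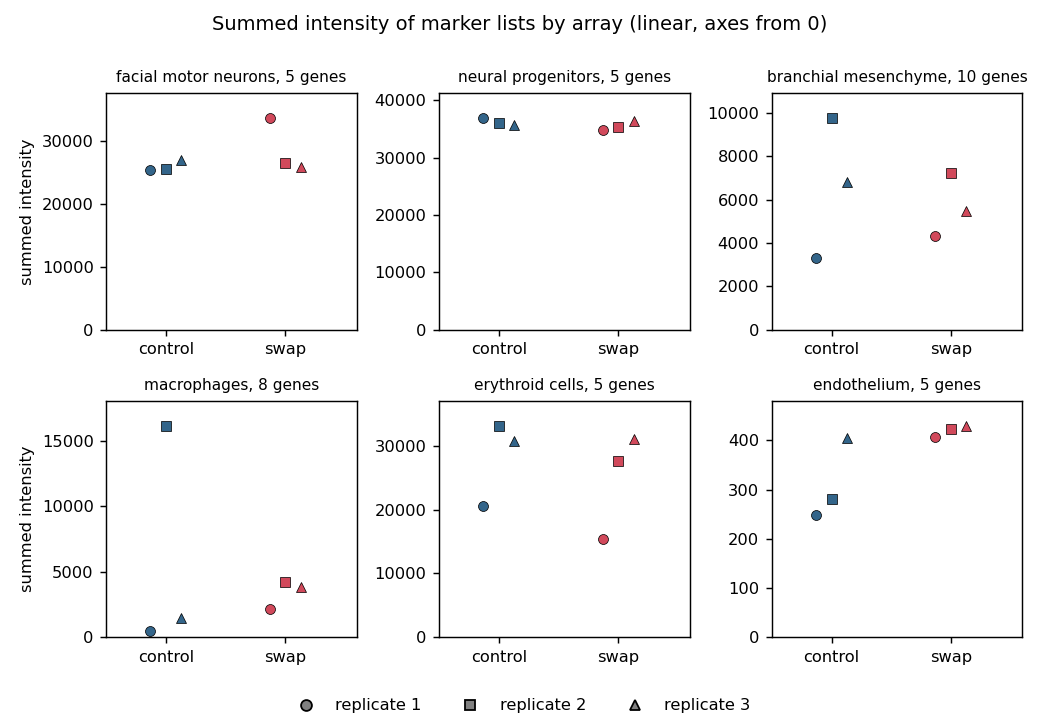
Summed linear intensity (y axis, from 0) of the 6 marker lists in each control and swap array, with 1 point per array and no error bar. The facial motor neuron sum is highest in swap array 1, through Isl1 and Tbx20 and not the other 3 genes of the list. The mesenchyme and erythroid sums are lowest in control array 1 and swap array 1, but Msx1 and Prrx2 of the mesenchyme list are not.

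Partners and relatives of the TALE genes were read from 3 further lists, and limma called 0 genes in each of them. At an unadjusted p under 0.05 it also gave 0 in each, against 3.63% of all genes. The other TALE homeobox genes, Pbx4, the Iroquois genes and Mkx, were all measured (8), 4 with a positive and 4 with a negative difference and a median of 0.04. The smallest p in that list belonged to Irx1 (-0.47, SE 0.29), Pbx4 (0.43, SE 0.42) and Irx3 (0.15, SE 0.24), and in none of the 8 were the groups separate. The anterior Hox partners and known Hox-TALE targets had 11 of 13 genes measured, 6 with a positive and 5 with a negative difference and a median of 0.07. Hoxb1, the gene of the tagged locus, stood at 12.67, 12.68 and 12.55 in the controls and 12.54, 12.06 and 11.78 under the swap, a difference of -0.51 (SE 0.27). Where that probe set lies in the transcript is unknown, so the labels cannot be checked with it. Hoxb3 differed by 0.30 (SE 0.23) and Hoxd3 by 0.67 (SE 0.53). The groups were separate for 2 of these 11 genes, Hoxb1 (lower) and Hoxb3 (higher), against the same 8.85% of all genes.

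Proteins known to bind TALE factors, among them histone deacetylases, coactivators, the non-muscle myosins and the Smad partners of Tgif, had 14 of 16 genes measured. Of these 8 had a positive and 6 a negative difference, with a median of 0.06. Smad2, a transducer of TGF-beta signals, stood at 9.15, 9.17 and 9.21 in the controls and 8.95, 8.62 and 9.002 under the swap, a difference of -0.32 (SE 0.22). Pbxip1, which encodes a Pbx-interacting protein, stood at 8.79, 8.81 and 8.75 in the controls and 9.08, 9.39 and 8.88 under the swap, a difference of 0.33 (SE 0.23). These were the 2 of 14 genes of the list whose groups were separate, against 8.85% of all genes. Smad3 had a difference of 0.24 (SE 0.25) and overlapping groups.

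The genes whose pattern over the 6 arrays was most like that of Meis1 or Meis2 were picked by Pearson's r of log2 intensity among the 10688 other genes at or above the median level that remain when clone and predicted names are left out. For Meis1 these were Lamtor3 (r = 0.993), Sbf2 (r = 0.992) and Supt20 (r = 0.992). Lamtor3 stood at 11.28, 11.53 and 11.08 in the controls and 12.37, 11.77 and 11.72 under the swap, so that it too was highest in swap array 1 and lowest in control array 3. For Meis2 they were Kidins220 (r = 0.994), Bicral (r = 0.990) and Tenm2 (r = 0.988), each lowest in control array 1 and highest in swap array 1. With so few arrays and so many genes high values of r are common: 101 genes had r above 0.9 with Meis1 and 123 with Meis2. The points share array, scaling and cell makeup, and r is given as a description only.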

How the data were processed

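The authors deposited 1 linear intensity per probe set and array. Per the submitters' processing notes they came from the affy package, with version, background correction and summary method not given in the sources used here. Averaged over the 6 arrays and rounded, the 2% trimmed mean of the deposited intensities was 500. Of 45101 probe sets 64 array controls were left out, and 34945 had 1 symbol, 932 several and 9160 none. All 21 member probe sets matched RefSeq's gene table by Entrez identifier, with 0 symbols changed.

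Log2 intensities of all 45037 probe sets were fitted with limma 3.58.1 in R 4.3.3 (lmFit, eBayes), two-sided, with Benjamini-Hochberg adjustment over all of them and a threshold of 0.05. The script was tested on simulated data. The p-values measure the spread between pooled litters. No detection calls, scan dates or batches were used, and precision is limited by the 6 arrays. Arrays correlated at r = 0.885 to 0.907, with no near-identical pair.

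The members, gene lists, tests and alternatives were chosen with earlier results of these data known. The naming rule took every member, the 3 smallest p per related list, the 2 highest means per marker list, and the 3 genes most like Meis1 and Meis2. Alternatives were a block for the replicate number, a level filter, other normalizations, an offset of 64, other priors and weights, other ways of joining probe sets, and leaving out arrays.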

Additional observations from a re-analysis of the deposited data

How the results depend on the processing

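limma called 0 member genes under all 16 alternatives run and 0 member probe sets under the 15 that test probe sets, and the smallest unadjusted p of a member gene was 0.0698, with the filter at the median level. Of 144 member differences 132 kept their sign, 12 turned, and none became called. With median centring Pbx2 was at 0.0028 and Tgif1 at 0.013, and with array weights Pbx2 was at 0.0143. Without both replicate 1 arrays Pbx2 was at 0.059 and Meis2 at -0.0455. With 1 array left out Pbx2 ranged from -0.13 to 0.11, Pknox2 from -0.36 to 0.24 and Tgif1 from -0.15 to 0.19. Pbx3, Meis1, Meis3, Pknox1 and Tgif2 kept their sign in these alternatives. The count of member genes with separate groups was 2 with quantile normalization, against 9.01% of all genes, and 0 with median centring, against 8.01% of all genes. It was 4 without both replicate 1 arrays, against 31.1% of all genes. With 1 array left out it was 2 to 4, against 16.8% to 20.4% of all genes. The cause of these shifts was not tested. Median centring moved the median of all genes to 0.04. With the replicate number as a block limma again called 0 members, with a median difference of -0.02 and a smallest adjusted p of 0.952. The sample labels number the replicates and name no pairing. At or above the median level, deviations of same-numbered arrays 1, 2 and 3 correlated at 0.234, 0.0313 and 0.224. Differently numbered pairs ranged from -0.287 (control array 1, swap array 3) to 0.123 (control array 2, swap array 3). So numbers 1 and 3 gave the highest values and number 2 did not, and an effect shared by replicate number was not tested. Leaving out x probe sets changed none of the member genes. The members' intervals, not a depth, limit what could be seen: for Pknox1 and Pknox2 a 2-fold decrease lies inside them.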
